A study of Mus musculus with 8 samples.

Results

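The genes described here are 10 members of the MHC class I antigen presentation pathway: H2-K1, H2-D1, B2m, Tap1, Tap2, Tapbp, Psmb8, Psmb9, Psmb10 and Nlrc5. They were chosen by gene symbol, and all 10 were found among the 22056 genes of the count tables. Their levels are given in tumour cells and in host cells of 8 single-cell RNA libraries, made by 3' sequencing on the 10x platform. N2N1G is a mouse small cell lung cancer line that carries eGFP. All 8 tumours were grown in mice from 1000000 N2N1G cells and collected after 3 weeks, and healthy cells were sorted from them. The brain group (n = 2) and the subcutaneous group (n = 3) were injected directly at the site, and the liver group (n = 3) was seeded through the tail vein. Every group thus shared the same cell line, cell dose and time, and differed in the site and, for liver, in the route. The series asks, by its title, how mimicry of neurons promotes growth of this cancer in brain. Host strain, age and sex, and the class I haplotypes of host and tumour, are not given in the sources used here. Nothing in the labels says whether the allografts of a site came from separate animals, so the p-values measure the spread between libraries.

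Tumour cells were those with at least 0.2% of their UMIs (counted molecules) from eGFP plus Mycl, and the cells below 0.2% were called host. Of 38460 deposited cells, 36797 were kept, of which 34719 were tumour cells and 2078 host cells. Tumour cells per library ranged from 2418 to 6276, with 21689091 to 62047017 UMIs, and host cells from 51 to 958. Levels are given as CPM, the UMIs of a gene per 1000000 UMIs of the cells named. An eGFP UMI was seen in 99.4% to 99.8% of tumour cells, which follows from the rule and is no check of it. All 10 listed tumour markers, with eGFP and Mycl of the rule among them, were detected in each library. Of the host cells, 517 clustered with tumour markers, and most host cells of liver and of subcutaneous 2 and 3 were of this kind. Any pair of libraries shared 20 to 56 cell barcodes, at most 1.16% of the smaller library.

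MHC class I molecules carry peptides from inside the cell to its surface, where CD8 T cells read them and NK cells sense their loss. Proteasomes cut the peptides, with interferon-inducible subunits replacing the constitutive ones in the immunoproteasome, and the TAP transporter passes them to the endoplasmic reticulum, where tapasin helps to load them on a heavy chain paired with beta-2 microglobulin. Small cell lung cancer is known for low class I expression, and interferons and the coactivator Nlrc5 are known inducers of these genes.

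The promoters of 8 of the 10 members were found in RefSeq's table for GRCm38.p6, as windows from 250 bases before to 50 bases after the start site. Those of H2-K1 and H2-D1 are shown because the genes are close relatives whose levels moved by different amounts, that of B2m because it is the shared light chain, and those of Tap1, Psmb8 and Psmb10 because they span the largest changes and none. H2-K1 lies at chr17:34000298-34000597 on the minus strand, H2-D1 at chr17:35262844-35263143 on the plus strand, B2m at chr2:122147437-122147736 on the plus strand, Tap1 at chr17:34187306-34187605 on the plus strand, Psmb8 at chr17:34197945-34198244 on the plus strand and Psmb10 at chr8:105938343-105938642 on the minus strand. The window of Psmb9, chr17:34187281-34187580 on the minus strand, overlaps most of the Tap1 window, since both genes start in this stretch and run apart. Capitals mark matches, on either strand, to 5 motifs: AANNGAAA (the core of an interferon regulatory factor site), TTCNNNGAA (GAS, the gamma-interferon activated site), the NF-kappaB site of class I genes (the longest run of capitals in H2-K1 and H2-D1), CCAAT (bound by NF-Y) and TGACG (the core of a CRE). None of the printed matches overlaps another.
H2-K1: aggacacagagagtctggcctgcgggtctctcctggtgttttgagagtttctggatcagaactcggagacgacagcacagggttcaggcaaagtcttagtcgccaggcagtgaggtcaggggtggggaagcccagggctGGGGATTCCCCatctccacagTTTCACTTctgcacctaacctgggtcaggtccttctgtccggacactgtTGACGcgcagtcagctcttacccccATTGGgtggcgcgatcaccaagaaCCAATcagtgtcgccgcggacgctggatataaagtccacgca
H2-D1: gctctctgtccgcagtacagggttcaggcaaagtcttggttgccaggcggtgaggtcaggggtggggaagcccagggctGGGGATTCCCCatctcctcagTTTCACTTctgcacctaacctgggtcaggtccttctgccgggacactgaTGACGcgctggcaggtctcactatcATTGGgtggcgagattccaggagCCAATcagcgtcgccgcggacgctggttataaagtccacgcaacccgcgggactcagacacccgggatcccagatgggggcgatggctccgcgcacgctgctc
B2m: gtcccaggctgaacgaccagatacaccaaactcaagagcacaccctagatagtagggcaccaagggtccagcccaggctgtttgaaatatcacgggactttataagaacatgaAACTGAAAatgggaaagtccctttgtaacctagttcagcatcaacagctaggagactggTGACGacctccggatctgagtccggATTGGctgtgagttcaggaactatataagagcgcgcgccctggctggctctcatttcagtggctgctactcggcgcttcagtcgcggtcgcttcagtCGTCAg
Tap1: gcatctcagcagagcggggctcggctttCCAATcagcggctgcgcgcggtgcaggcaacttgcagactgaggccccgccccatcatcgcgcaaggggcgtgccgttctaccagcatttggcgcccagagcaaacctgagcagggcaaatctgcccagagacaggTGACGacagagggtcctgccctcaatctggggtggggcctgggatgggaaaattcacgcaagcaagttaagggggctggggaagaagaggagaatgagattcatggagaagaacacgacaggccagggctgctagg
Psmb8: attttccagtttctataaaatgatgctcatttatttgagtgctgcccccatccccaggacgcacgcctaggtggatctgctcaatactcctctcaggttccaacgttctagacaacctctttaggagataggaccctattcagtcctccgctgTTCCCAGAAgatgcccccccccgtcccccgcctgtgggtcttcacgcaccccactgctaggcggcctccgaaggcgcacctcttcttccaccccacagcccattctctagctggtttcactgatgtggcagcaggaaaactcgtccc
Psmb10: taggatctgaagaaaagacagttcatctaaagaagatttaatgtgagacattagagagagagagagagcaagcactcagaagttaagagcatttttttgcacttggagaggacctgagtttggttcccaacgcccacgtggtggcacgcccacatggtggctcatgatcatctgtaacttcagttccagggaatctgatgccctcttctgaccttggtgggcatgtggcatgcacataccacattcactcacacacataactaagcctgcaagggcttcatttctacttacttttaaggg

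The H2-K1 and H2-D1 windows held the same set of matches, 1 NF-kappaB site, 1 interferon core, 1 TGACG and 2 CCAAT. The B2m window held 1 interferon core, 1 CCAAT and 2 TGACG. In the overlapping windows of Tap1 and Psmb9 there were 1 CCAAT and 1 TGACG, in that of Psmb8 a GAS match alone, and in that of Psmb10 no match to any of the 5. Of all 32544 promoter windows, 23.9% held the interferon core, 8.33% GAS, 0.0307% the NF-kappaB site, 37.4% CCAAT and 20.9% TGACG. These matches describe the letters and show no binding.

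In the mm10 annotation all 10 members are protein-coding genes, and 7 of them lie in the major histocompatibility region of chromosome 17. The heavy chain genes are H2-K1 (ENSMUSG00000061232) at chr17:33996017-34000347 on the minus strand and H2-D1 (ENSMUSG00000073411) at chr17:35262730-35267499 on the plus strand. Tapbp (ENSMUSG00000024308) is at chr17:33915899-33929292, Tap1 (ENSMUSG00000037321) at chr17:34187553-34197225, Psmb8 (ENSMUSG00000024338) at chr17:34197721-34201454 and Tap2 (ENSMUSG00000024339) at chr17:34203527-34216321, all on the plus strand, and Psmb9 (ENSMUSG00000096727) at chr17:34181987-34187764 on the minus strand. B2m (ENSMUSG00000060802) is at chr2:122147686-122153083 on the plus strand, Psmb10 (ENSMUSG00000031897) at chr8:105935735-105938444 on the minus strand and Nlrc5 (ENSMUSG00000074151) at chr8:94434356-94527272 on the plus strand. The 3' counts compare a gene between libraries and cells, not 1 gene with another.

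In tumour cells, most class I presentation genes were higher in brain than at both other sites. The immunoproteasome subunit Psmb8 had the largest difference among members that are detected well enough to be tested without the brain libraries. Psmb9, Tap1 and Tap2 had large differences too, but passed the filter on low counts only through brain, which fixes their direction. The heavy chain H2-K1 was 13.5-fold higher in brain than in liver and 5.48-fold higher than under the skin, B2m about 3-fold, and H2-D1 less than 2-fold. Psmb10, the remaining immunoproteasome subunit, did not pass the test in either comparison. The 2 brain libraries were above all 6 others for 9 of the 10 members, as they were for 20.6% of all genes tested. Of these 9, Tap1, Tap2 and Psmb9 passed the filter only through brain. Nlrc5, with few UMIs in any library, did not pass it and is not among the genes tested. The 6 members that pass without brain all had this order except Psmb10. The plot of levels by library shows each value.

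**Figure D1:**
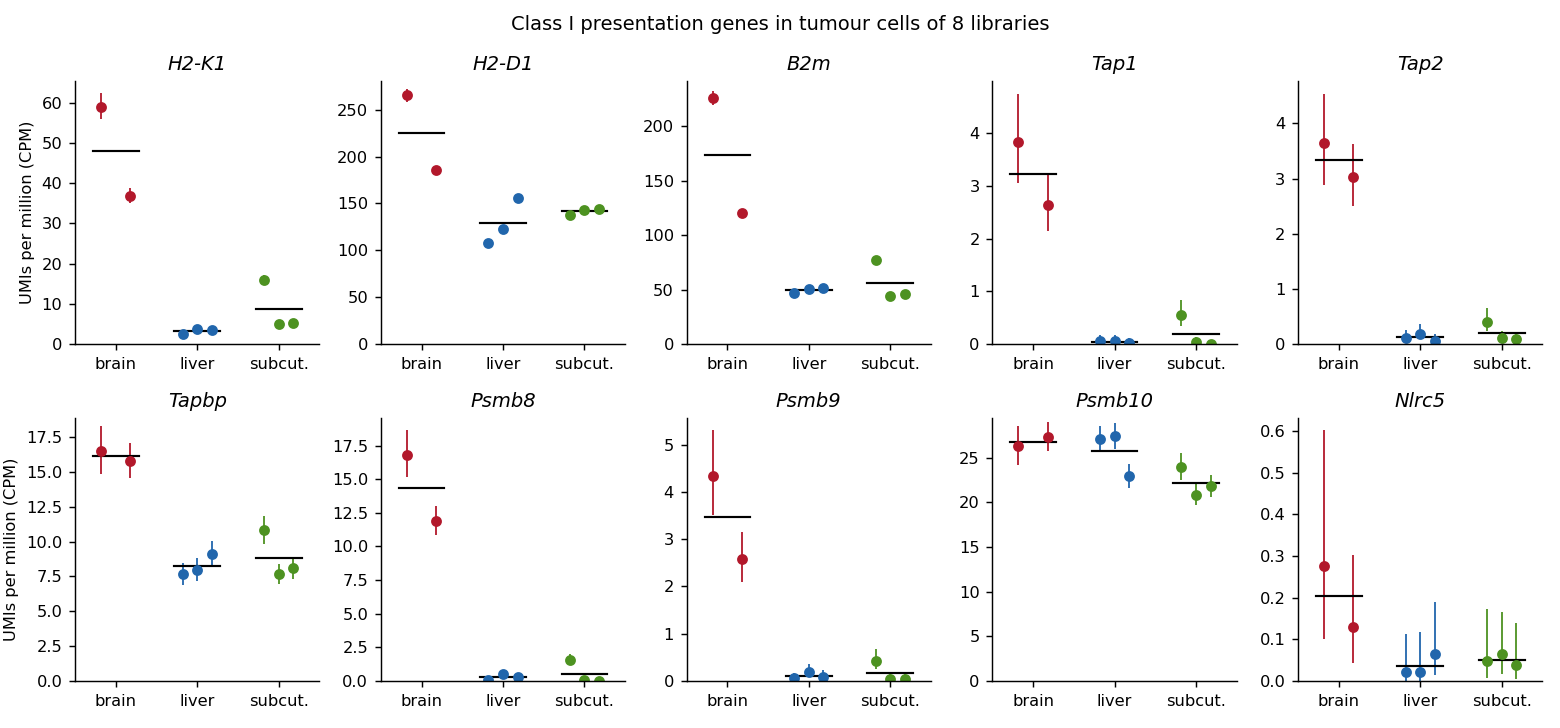
Level of each gene in tumour cells in CPM (vertical axis from 0), 1 point per library in brain (red), liver (blue) and subcutaneous tumours (green); error bars are exact 95% Poisson intervals, which cover counting error only, and black lines are group means. Both brain libraries sit above the others for every gene but Psmb10, and subcutaneous 1 is the highest library outside brain for 7 of the 10.

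H2-K1 encodes the heavy chain of the H-2K molecule. It stood at 59.0 and 36.8 CPM in brain 1 and 2, at 2.57, 3.72 and 3.52 in liver 1 to 3, and at 15.9, 5.03 and 5.34 in subcutaneous 1 to 3. Brain libraries averaged 47.9 ± 15.7 (SD, n = 2), liver libraries 3.27 ± 0.614 (SD, n = 3) and subcutaneous libraries 8.77 ± 6.22 (SD, n = 3). No brain library overlapped another site, and every liver library was below every subcutaneous one. By edgeR's quasi-likelihood test, adjusted over 13931 genes, H2-K1 rose in brain by 3.76 on the log2 scale against liver (SE 0.516, adjusted p = 0.0034) and by 2.46 against subcutaneous tumours (SE 0.489, adjusted p = 0.0188). The latter was 3.20 without subcutaneous 1, and did not pass without brain 1 (2.10, adjusted p = 0.0842), subcutaneous 2 (2.20, adjusted p = 0.0548) or subcutaneous 3 (2.21, adjusted p = 0.0590). Between liver and subcutaneous tumours the difference of -1.30 (SE 0.467, adjusted p = 0.196) did not pass.

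H2-D1, the heavy chain of H-2D, was well expressed at every site. Its levels were 265 and 186 CPM in brain, 108, 123 and 156 in liver and 138, 143 and 144 in subcutaneous tumours. Both brain libraries were above the rest, brain 2 only modestly above liver 3, and the liver and subcutaneous groups overlapped. The log2 difference was 0.69 against liver (edgeR, SE 0.163, adjusted p = 0.0173) and 0.67 against subcutaneous tumours (SE 0.163, adjusted p = 0.0282). Without brain 1 the difference was 0.44 against liver and 0.41 against subcutaneous tumours, with adjusted p = 0.173 and 0.242 in edgeR. The call against liver was also lost without liver 1 (adjusted p = 0.0593) or liver 2 (0.0764), and that against subcutaneous tumours without liver 2 (0.0576), subcutaneous 2 (0.0779) or subcutaneous 3 (0.0888).

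B2m, the light chain shared by all class I molecules, was at 225 and 121 CPM in brain, 47.0, 50.8 and 51.7 in liver, and 77.1, 44.4 and 46.3 in subcutaneous tumours. Brain 1 had close to double the level of brain 2, and both were above all others. B2m rose by 1.68 on the log2 scale against liver (edgeR, SE 0.285, adjusted p = 0.0056) and by 1.63 against subcutaneous tumours (SE 0.285, adjusted p = 0.0098). Without brain 1 the differences were 1.18 (adjusted p = 0.0406) and 1.13 (adjusted p = 0.0693).

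Psmb8 and Psmb9 encode the inducible catalytic subunits LMP7 and LMP2 of the immunoproteasome. Psmb8 had 365 and 461 UMIs in the tumour cells of brain 1 and 2, or 16.8 and 11.9 CPM. Liver libraries had 4, 25 and 12 UMIs (0.081, 0.523 and 0.259 CPM) and subcutaneous libraries 66, 4 and 0 (1.58, 0.0645 and under 0.0578, the level of 3 counts). Outside brain Psmb8 was thus rare, and highest in subcutaneous 1. The log2 differences were 5.52 against liver (edgeR, SE 1.35, adjusted p = 0.0279) and 4.81 against subcutaneous tumours (SE 1.28, adjusted p = 0.0470). The call against liver was lost without any 1 of brain 1, brain 2 or the 3 liver libraries (adjusted p = 0.0630 to 0.0859). Against subcutaneous tumours it was lost without any 1 library other than subcutaneous 1 (adjusted p = 0.0632 to 0.138), and without subcutaneous 1 the difference was 8.56.

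Psmb9 was at 4.33 and 2.58 CPM in brain, 0.061, 0.188 and 0.0863 in liver, and 0.432, 0.0484 and 0.0385 in subcutaneous tumours. It rose by 4.80 on the log2 scale against liver (edgeR, SE 0.861, adjusted p = 0.0062) and by 4.39 against subcutaneous tumours (SE 0.832, adjusted p = 0.0118). Against subcutaneous tumours the difference was 6.20 without subcutaneous 1, and 3.99 without brain 1 (adjusted p = 0.0807). Psmb10, which encodes the inducible subunit MECL-1, behaved differently from this pair. Its levels were 26.3 and 27.3 CPM in brain, 27.1, 27.4 and 22.9 in liver, and 24.003, 20.9 and 21.8 in subcutaneous tumours. Brain and liver overlapped, with a log2 difference of -0.06 (edgeR, SE 0.124, adjusted p = 0.758), and the difference from subcutaneous tumours was 0.27 (SE 0.123, adjusted p = 0.171).

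Tap1 and Tap2 form the peptide transporter. Tap1 had 83 and 102 UMIs in brain (3.83 and 2.64 CPM), 3, 3 and 1 in liver, and 23, 3 and 0 in subcutaneous tumours. Tap2 had 79 and 117 UMIs in brain (3.64 and 3.02 CPM), 6, 9 and 3 in liver, and 17, 7 and 5 in subcutaneous tumours. Both were seen in brain at a level that no other library came near. The log2 differences against liver were 5.85 for Tap1 (edgeR, SE 1.18, adjusted p = 0.0100) and 4.58 for Tap2 (SE 0.621, adjusted p = 0.0021), and against subcutaneous tumours 4.09 (SE 1.03, adjusted p = 0.0309) and 4.05 (SE 0.595, adjusted p = 0.0048). Without subcutaneous 1 the latter were 6.79 and 4.94. The Tap1 call against subcutaneous tumours was lost without any 1 other library (adjusted p = 0.0509 to 0.142), and that against liver without brain 1 (adjusted p = 0.0556).

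Tapbp encodes tapasin, which bridges the transporter and the heavy chain. It was at 16.5 and 15.8 CPM in brain, 7.65, 7.95 and 9.11 in liver, and 10.8, 7.64 and 8.07 in subcutaneous tumours, so the brain pair agreed closely and stood above the rest. The log2 difference was 0.86 against liver (edgeR, SE 0.161, adjusted p = 0.0074) and 0.87 against subcutaneous tumours (SE 0.161, adjusted p = 0.0108). The latter did not pass without brain 1 (adjusted p = 0.0689) or brain 2 (adjusted p = 0.0539). Nlrc5, the coactivator of class I promoters, had 6 and 5 UMIs in the brain libraries and 1 to 4 in each of the others. It did not pass the filter on low counts, and without the filter its differences of 2.27 and 1.86 had adjusted p = 0.0941 and 0.167, so no difference was detectable at this depth.

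By count, 8 of the 9 members tested were higher in brain than in liver, where 13.2% of all genes were called higher, and 8 of 9 were higher than in subcutaneous tumours, where 8.94% were. Tap1, Tap2 and Psmb9 passed the filter only because of the brain libraries and had to differ, so the count is also given over the 6 members that pass without brain. Of these, 5 of 6 were higher in each comparison, Psmb10 being the exception, and their median log2 difference was 1.27 against liver and 1.25 against subcutaneous tumours, beside 0.0012 and -0.0004 over all genes tested. The same 8 members were higher in both comparisons, as were 7.35% of all genes, and the comparisons share their brain libraries. Between liver and subcutaneous tumours 0 of 9 passed in edgeR, beside 2.83% of all genes, and 0 of 9 passed in DESeq2. In edgeR 2 of 9 (H2-K1 and Psmb10) had an unadjusted p under 0.05, for which the share of all genes is not given.

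The calls rest on few libraries. With brain 1 left out, 3 of the 6 (B2m, H2-K1 and Tapbp) were higher than in liver, beside 5.76% of all genes, and 0 of 6 were higher than in subcutaneous tumours in edgeR, beside 1.99%. In that last fit, which holds 1 brain library, the median log2 difference of the 6 was 0.99. Against subcutaneous tumours 3 of 6 were higher without brain 2, beside 3.22% of all genes, and 3 of 6 without liver 2, beside 6.22%. Without subcutaneous 2 or subcutaneous 3 it was 2 of 6 (B2m and Tapbp), beside 3.5% and 3.35%, and a fit of brain and subcutaneous tumours alone called Tapbp only, beside 3.45%.

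**Figure D2:**
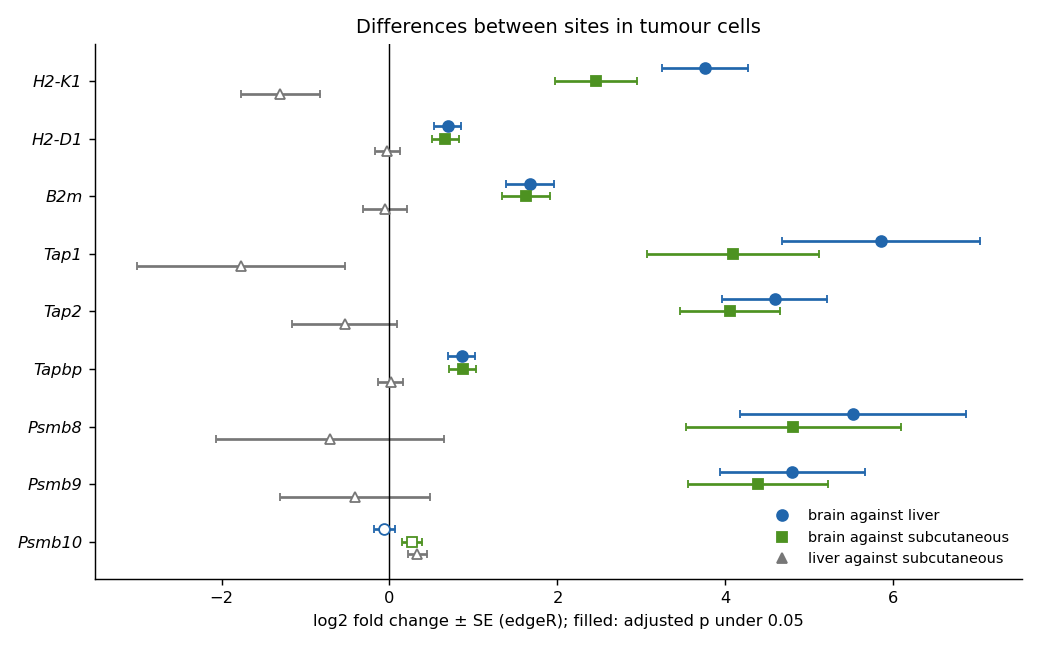
Log2 fold change with its SE (horizontal axis) of the 9 members tested in tumour cells, for brain against liver (blue), brain against subcutaneous (green) and liver against subcutaneous (grey); filled symbols have an adjusted p under 0.05. Tap1, Psmb8, Psmb9 and Tap2 lie farthest right for brain, H2-D1 and Tapbp lie under 1, and no grey symbol is filled.

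Brain tumours held many myeloid cells, and RNA of host cells in tumour droplets was measured through 10 myeloid markers. All 10 were detected in the tumour cells of every library. Their summed level was 514 and 77.8 CPM in tumour cells of brain 1 and 2, 3.82 to 12.2 in liver, and 22.9, 1.08 and 0.790 in subcutaneous 1 to 3. As a share of the level in host cells of the same library this was 1.94% in brain 1 and 0.392% in brain 2, and single markers ranged from 1.28% to 2.58% and from 0.344% to 0.454%.

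Each of the 10 members had a larger share than any myeloid marker. In brain 1 the members' level in tumour cells was 2.85% to 18.3% of that in host cells, and in brain 2 1.39% to 17.1%. If every host transcript came along in the ratio of the myeloid markers, this RNA would give 20.2 of the 59.0 CPM of H2-K1 in brain 1 and 3.59 of the 36.8 in brain 2. For B2m it would give 107 of 225 and 16.4 of 121, and for Psmb9, the member nearest the markers, 2.95 of 4.33 and 0.729 of 2.58. With this amount subtracted from all libraries, an alternative chosen after seeing the data, 5 of the 6 members that pass without brain were higher against liver, beside 12.3% of all genes, and 5 of 6 against subcutaneous tumours, beside 8.25%, while the B2m difference fell from 1.68 to 1.17 against liver.

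A second measure used tumour cells without a single UMI of the 10 myeloid markers, which were 22.5% of tumour cells in brain 1, 77.7% in brain 2 and 90.7% or more elsewhere. In these cells H2-K1 was at 42.8 and 35.3 CPM in brain, 2.44 to 3.40 in liver and 5.04 to 15.1 in subcutaneous tumours. B2m was at 157 and 111 in brain against 44.2 to 71.2 elsewhere, and Psmb8 at 12.3 and 10.5 against at most 1.02. In these cells 5 of the 6 members that pass without brain were higher against liver, beside 10.7% of all genes, and 5 of 6 against subcutaneous tumours, beside 6.87%. Some other marker lists were also higher in both brain libraries. Oligodendrocyte lineage markers, with all 6 detected in both, summed to 213 and 146 CPM in brain tumour cells against 36.0 to 47.2 elsewhere, and astrocyte markers to 85.5 and 66.7 against 17.1 to 40.9. MHC class II positive myeloid markers, all 8 detected in both, summed to 224 and 125 against 0.21 to 89.9. Endothelial markers, 8 of 8, summed to 44.6 and 26.5 against 10.1 to 29.2, so brain 2 lay below subcutaneous 1. The part of these cells in the members' levels was not tested. The 5 T cell markers summed to at most 0.415 in tumour cells.

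**Figure D3:**
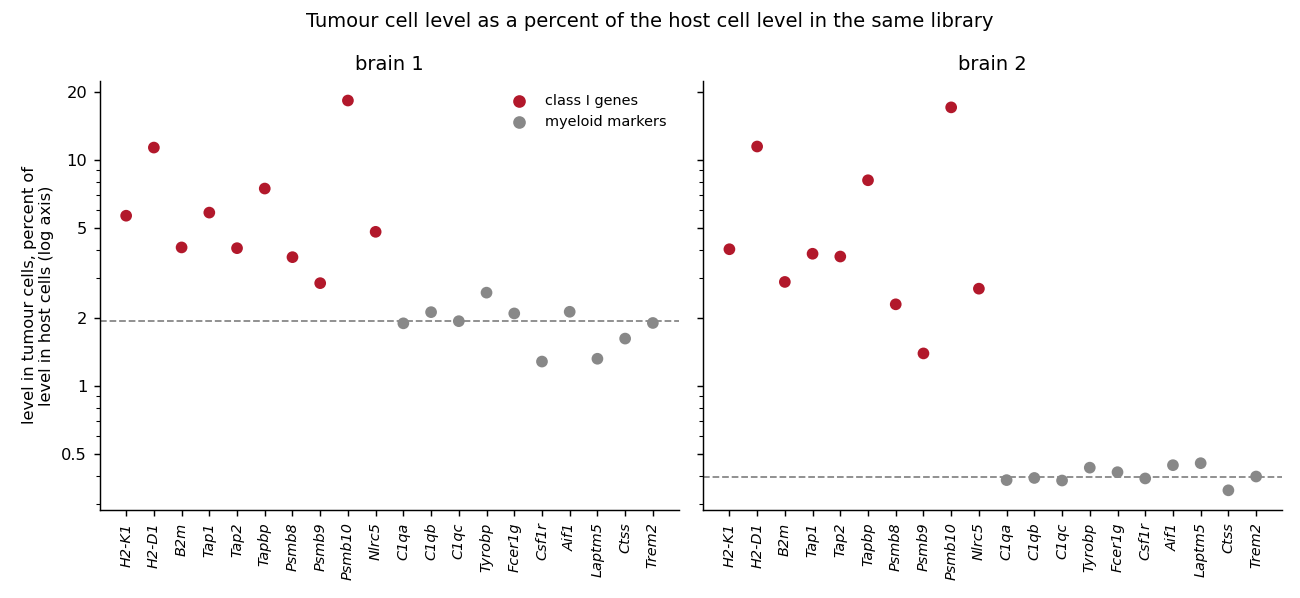
Level in tumour cells as a percent of the level in host cells of the same library (vertical log axis) for the 10 class I genes (red) and 10 myeloid markers (grey) in brain 1 and brain 2; the dashed line is the share of the summed myeloid markers, 1.94% and 0.392%. All red points lie above all grey points in both panels.

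The threshold on eGFP plus Mycl matters for the cells near it. In brain, cells with 0.1% to 0.2% had 4449 CPM over the 10 members, cells with 0.2% to 0.3% had 1286, and those with at least 0.5% had 453. The 158 brain cells just inside the threshold had 1926 CPM of the myeloid markers, against 165 in those with at least 0.5%. With the threshold at 0.5%, 5 of the 6 members that pass without brain were higher against each site, beside 13.2% of all genes against liver and 9.84% against subcutaneous tumours.

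To see how the members were spread over cells, each tumour cell was thinned to 2000 UMIs. At least 1 UMI of the 10 members was then found in 56.1% and 48.8% of tumour cells in brain 1 and 2, against 31.9% to 38.8% in the other 6 libraries. At least 5 were found in 4.39% and 2.23%, against 0.05% to 0.42%. The brain libraries thus had more cells with any member UMI and a larger tail of cells with many. An H2-K1 UMI was seen in 8.56% and 6.39% of brain tumour cells, in 0.61% to 0.78% in liver, and in 2.69%, 0.81% and 0.99% in subcutaneous 1 to 3. In host cells the same share was 70.6% and 62.2% in brain. C1qa, a complement gene of macrophages that tumour cells should lack, was seen in 8.98% of tumour cells in brain 1 and 1.21% in brain 2, with median depths of 7972 and 8409 UMIs before thinning. C1qa had a higher level than H2-K1 in the host cells of brain, so its share is no direct measure of the H2-K1 background, for which the estimate above of 20.2 of 59.0 and 3.59 of 36.8 CPM is given. Psmb8 was seen in 3.04% and 2.35% of brain tumour cells and in at most 0.29% of those elsewhere.

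Some members were found together in the same brain tumour cells more often than others. Among cells with an H2-K1 UMI, 10.8% in brain 1 and 10.5% in brain 2 also had one of Psmb8, against 2.31% and 1.80% of cells without H2-K1, and in cells with no myeloid UMI after thinning the shares were 10.7% against 2.29% and 10.4% against 1.78%. H2-D1 was in 57.1% and 48.1% of the cells with H2-K1, against 32.2% and 27.8% of those without, and B2m in 41.9% and 31.4% against 23.8% and 17.7%. In cells with no myeloid UMI, B2m was in 28.7% against 23.01% in brain 1 and 28.8% against 17.4% in brain 2, so the gap in brain 1 was smaller there than over all its cells. Psmb10 was in 5.42% against 5.17% in brain 1 and 9.69% against 5.21% in brain 2, and Tapbp in 6.40% against 2.81% and 3.49% against 3.02%. In cells with no myeloid UMI, Psmb10 was in 4.10% (5 cells) against 4.52% in brain 1, the other direction, and 9.17% (22 cells) against 5.31% in brain 2. Tapbp was there in 4.10% (5 cells) against 2.80% and 3.33% (8 cells) against 2.96%. Outside brain Psmb8 was seen with H2-K1 in 2.73% against 0.226% of cells in subcutaneous 1 (3 cells) and 6.25% against 0.0489% in liver 2 (2 cells). These shares are not tested, since cells of a library are not replicates.

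Levels of the members also moved with interferon-stimulated genes. Tumour cells were split by their UMIs over 35 interferon-stimulated genes, none of them a member, and those with at least 3 of 2000 were called interferon-high. They were 8.44% and 9.61% of tumour cells in brain, 3.19%, 3.74% and 3.00% in liver, and 1.90%, 0.403% and 1.11% in subcutaneous tumours. The genes that led differed by site. Bst2, which encodes tetherin, Ifitm3, a restriction factor of viral entry, Ifi27l2a and Usp18, which restrains interferon signalling, led in brain, while Ifitm3 alone gave 92.4% to 95.3% of the list's UMIs in liver and 71.3% to 93.2% in subcutaneous tumours. Without Ifitm3, a change made after these shares were seen, interferon-high cells were 6.16% and 7.11% of brain tumour cells, at most 0.0491% in liver and at most 0.342% in subcutaneous tumours.

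Within brain, interferon-high cells held an excess of the members. H2-K1 was at 210 and 148 CPM in them, against 42.8 and 27.0 in the other tumour cells, and Psmb8 at 80.0 and 77.3 against 10.1 and 6.30. These cells held 42.1% and 56.6% of the Psmb8 UMIs, 31.1% and 36.9% of those of H2-K1, 28.3% and 24.4% of those of B2m and 12.3% and 17.9% of those of Psmb10. Outside brain, the 78 interferon-high cells of subcutaneous 1 had Psmb8 at 44.9 against 0.996 and B2m at 385 against 68.1. Over all 8 libraries, with library as a block, 3 of the 5 members tested were higher in interferon-high cells, beside 1.04% of all genes: H2-K1 by 2.15 on the log2 scale (edgeR, SE 0.179, adjusted p = 6e-30), Tapbp by 1.30 (SE 0.263, adjusted p = 0.00012) and H2-D1 by 0.95 (SE 0.153, adjusted p = 0.0012). B2m, with a difference of 1.52, had adjusted p = 0.0508, and Psmb10, with 0.52, had adjusted p = 0.178. The very small p-value of H2-K1 rests on a spread pooled over genes more than on the 8 libraries. The blocks also hold unlike splits, since outside brain the split was mostly by Ifitm3. In cells without a myeloid UMI, B2m alone of the 3 members then tested was called.

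With Ifitm3 left out only the 2 brain libraries had 20 or more interferon-high cells, and 8 of 9 members were higher in those cells, beside 4.02% of all genes. Psmb10 was among them, at 51.4 and 62.7 CPM against 25.8 and 27.2 (log2 difference 1.12, edgeR, SE 0.260, adjusted p = 0.0059), and Tap2 alone was not called (1.97, SE 0.686, adjusted p = 0.096). This fit has 4 sums from 2 libraries, so its errors rest on the spread pooled over genes. Tap1, Psmb9 and Tap2 were at most at 3.15 CPM in the other tumour cells. They passed the filter on low counts only through the interferon-high cells, which fixes their direction. The calls of H2-K1, H2-D1, B2m, Tapbp, Psmb8 and Psmb10 do not rest on this. With interferon-high cells, by the list with Ifitm3, removed from all libraries, 4 of the 6 members that pass without brain (B2m, H2-K1, Psmb8 and Tapbp) were higher in brain than in liver, beside 12.4% of all genes, and than in subcutaneous tumours, beside 8.34%. H2-D1 was no longer called (0.50 and 0.48, adjusted p = 0.052 and 0.0751).

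**Figure D4:**
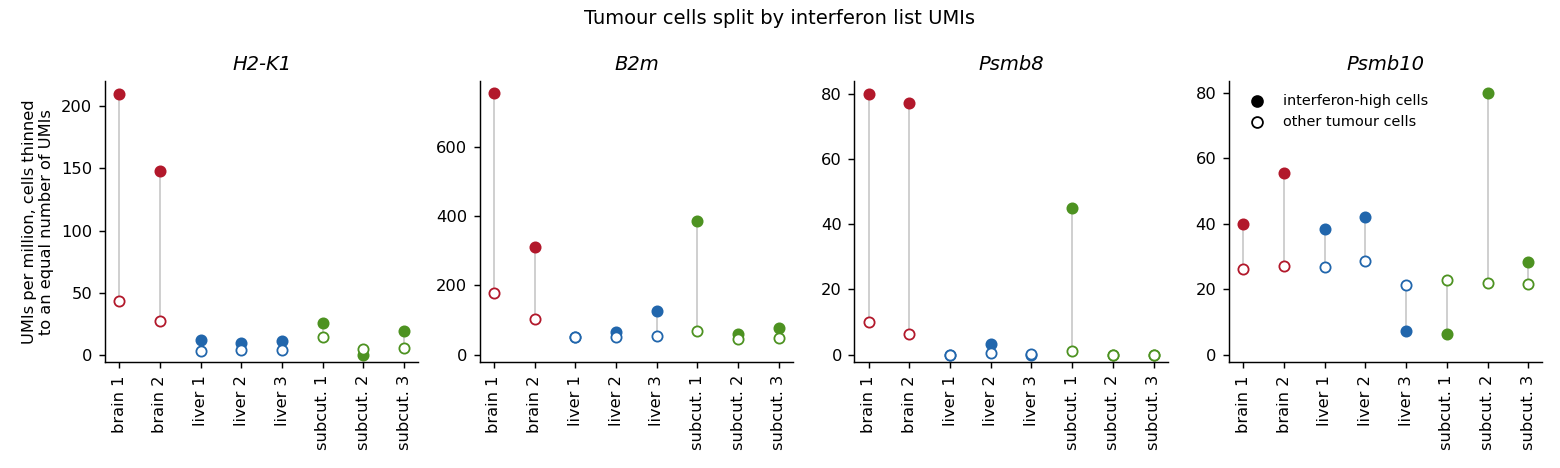
Level of 4 genes in interferon-high (filled) and other tumour cells (open) of each library, as CPM in cells thinned to 2000 UMIs; colours mark brain (red), liver (blue) and subcutaneous (green). In brain the filled points of H2-K1, B2m and Psmb8 stand far above the open ones, and the open points of H2-K1 stay above those of the other sites.

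Host cells of the same tumours had higher levels of the members, most clearly in brain and in subcutaneous 1. Of the 8 members tested with library as a block, 8 were higher in host than in tumour cells, beside 18.3% of all genes. The log2 difference was 7.68 for Psmb8 (edgeR, SE 0.666, adjusted p = 3.8e-06), 7.48 for Psmb9 (SE 0.543, adjusted p = 5.8e-07), 6.11 for Tap2, 5.43 for H2-K1, 4.73 for B2m, 3.19 for Tapbp, 2.76 for H2-D1 and 1.99 for Psmb10 (SE 0.332, adjusted p = 0.00069). H2-D1 and Psmb10 had the smallest differences. Psmb8, Psmb9 and Tap2, at most at 1.58 CPM in tumour cells outside brain, would not have passed the filter on low counts without the host cells, which fixes their direction. Psmb9 and Tap2, with 0 UMIs in host cells of subcutaneous 2, needed the brain tumour cells as well to pass. The calls of H2-K1, B2m, Tapbp, H2-D1 and Psmb10 do not rest on it. B2m in host cells was at 5499 and 4184 CPM in brain, 705 to 1382 in liver, and 4029, 89.7 and 319 in subcutaneous 1 to 3. In the liver libraries and in subcutaneous 2 and 3, most host cells clustered with tumour markers. There some members were no higher in host cells, as Psmb10 in subcutaneous 3 (11.96 CPM from 3 UMIs, against 21.8 in tumour cells) and Tapbp in liver 1 (7.16 from 2 UMIs, against 7.65), and H2-D1 in subcutaneous 2 was at 181 against 143. More cells of a type and more RNA per cell cannot be told apart in these sums.

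Host cells were clustered without the members, and of 2078 cells 1514 fell in clusters named for a host cell type by marker lists, 517 in clusters with tumour markers and 47 in unnamed clusters. Myeloid clusters are given by number with leading genes, because several had markers of more than 1 type. Cluster 1, led by Cst7 and Syngr1 and with 307 cells, all in brain, scored as macrophage first and microglia second. Its mean log2 fold over the macrophage markers was 0.61. Cluster 11, led by Cxcl10 and with Ifit3 among its leading genes, had the same order with 0.54. Cluster 4 scored as MHC class II positive myeloid first and macrophage second, with 0.42.

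In brain, B2m was at 11666 CPM in cluster 11 (18 cells), 9104 in cluster 15, led by Ccr7 (30 cells), 8585 in cluster 1 (307 cells), 7603 in cluster 5, led by Spp1 and Fam20c (81 cells), and 7014 in cluster 0, led by Ccl8 (85 cells). It was at 5424 in cluster 4 (149 cells), led by Sirpb1c and Cxcl2, with the monocyte genes Ly6c2 and Ccr2 further down its leading genes. Cluster 7, led by Cd209a, had 3996 (136 cells). Cluster 6, led by the microglia genes Tmem119 and P2ry12, had 3768 (278 cells). Neutrophil-like cells had 3687 (14 cells), endothelial-like cells 3388 (72 cells) and fibroblast- or pericyte-like cells 2771 (23 cells). Astrocyte-like cells had 699 (32 cells) and oligodendrocyte lineage-like cells 530 (36 cells), with overlapping exact 95% Poisson intervals (542 to 888 and 427 to 649), which cover counting error only. These 2 glial classes had the lowest B2m of those shown, above the mean of 173 in brain tumour cells.

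Psmb8 had another order. It was at 1471 CPM in cluster 15, 1039 in cluster 7, 551 in cluster 11, 545 in cluster 4, 381 in cluster 1, 380 in cluster 0 and 173 in cluster 6, with 177 in endothelial-like cells, and oligodendrocyte lineage-like cells had no UMI, which allows up to 17.3. H2-K1 was at 3045 in cluster 15, 2085 in cluster 11, 1684 in cluster 5, 1443 in cluster 0, 1288 in cluster 1, 1005 in endothelial-like cells and 488 in cluster 6, and at 334 in astrocyte-like and 80.6 in oligodendrocyte lineage-like cells. Nlrc5 was at 79.3 CPM in cluster 15, from 13 UMIs. These are levels of rebuilt clusters with no test between them.

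Some clusters had cells at several sites. B2m in cluster 0 was at 7014 CPM in brain and 8027 in subcutaneous tumours (26 cells), and in cluster 7 at 3996 in brain, 3648 in liver (20 cells) and 4458 in subcutaneous tumours (29 cells). Psmb8 in cluster 7 was at 1039, 707 and 827. Differences between sites in host cells were not tested. No cluster was named for T, B or NK cells. Among their markers, Cd3e, Cd3g, Ncr1, Prf1 and Gzma had 0 UMIs in host cells. Cd3d had 5, Cd8a 51 (14 cells), Cd4 46 (33 cells), Cd79a 33 (32 cells, beside 3934 UMIs in tumour cells), Cd79b 111 (89 cells), Ms4a1 4, Pax5 3, Klrb1c 1 and Klre1 17 (11 cells). An unnamed cluster of 9 cells had Ptcra, Ccr9, Cd8a and Cd7 among its leading genes.

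**Figure D5:**
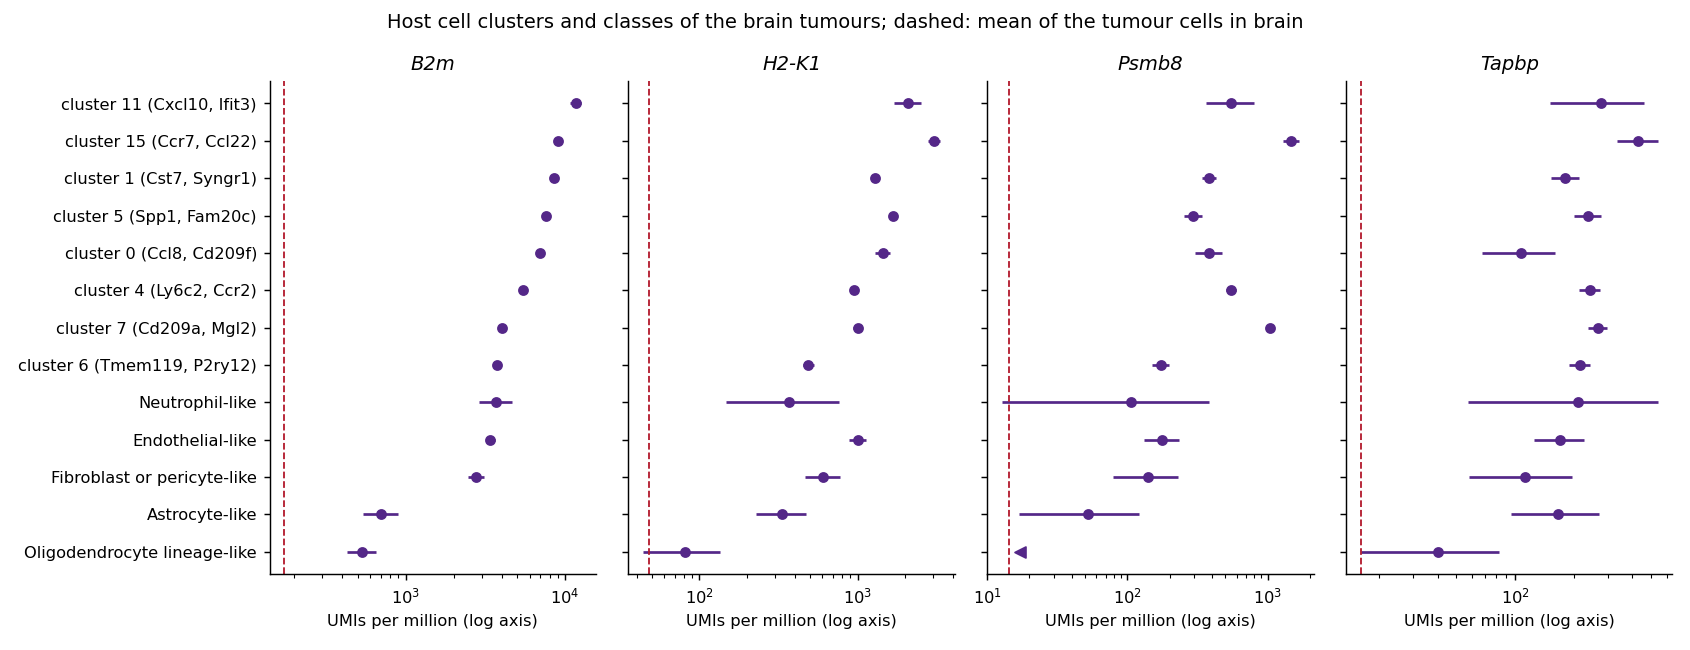
Level of 4 members in host clusters, named by number and leading genes, and in host cell classes of the 2 brain libraries together, on a log axis in UMIs per 1000000 (CPM), with exact 95% Poisson intervals; a triangle marks the level of 3 counts where no UMI was found, and the dashed red line is the mean of brain tumour cells. The oligodendrocyte lineage-like cells are lowest in each panel, and cluster 15 is highest for H2-K1 and Psmb8.

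Other class I molecules, which are non-classical or class I-like, were also higher in brain. Of 12 listed, 8 were tested. Of these, 7 were higher in brain than in liver, beside 13.2% of all genes, and 8 than in subcutaneous tumours, beside 8.94%. The median log2 differences were 2.40 and 3.02, beside 0.0012 and -0.0004 over all genes tested. Which of the 8 pass the filter on low counts without brain was not determined, and passing only through brain fixes the direction. H2-Q4 was at 9.36 and 5.35 CPM in brain and at most 0.86 elsewhere (log2 differences 5.14 and 4.19), H2-Q6 differed by 5.64 and 4.84, H2-Q7 by 6.09 and 4.65 and H2-M3, which presents formylated peptides, by 3.34 and 2.64. H2-T23, the ligand of CD94/NKG2 receptors, differed by 1.46 and 1.25, and Cd1d1, which presents lipids, by 1.37 and 0.71. The H2 genes are near-identical copies in parts, so the split of reads between them, H2-K1 and H2-D1 included, is uncertain.

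Other steps of the pathway moved less. Of 8 genes for loading and trimming, only the trimming peptidase Erap1 was higher in brain in both comparisons (1.17 and 1.15, edgeR adjusted p = 0.0121 and 0.0195), while the chaperones Hspa5 and Pdia3 were lower than in subcutaneous tumours (-1.07 and -0.64), and the medians were -0.20 and -0.27. The proteasome activator genes Psme1 (0.65 and 0.80) and Psme2 (0.75 and 0.80) were higher in both, and Psme3, of the nuclear activator, was lower than in liver (-0.44). Of the constitutive catalytic subunits Psmb5, Psmb6 and Psmb7, replaced in the immunoproteasome by the 3 inducible ones, none passed in either comparison (log2 differences -0.23 to 0.18, edgeR adjusted p = 0.209 to 0.569).

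Among genes of interferon and cytokine signalling, Irf9 (2.96 and 2.38), the feedback inhibitor Socs1 (0.85 and 1.25) and the receptor chain Ifnar1 (0.36 and 0.54) were higher in brain than in liver and than in subcutaneous tumours. The receptor chains Ifnar2 (0.97) and Ifngr1 (0.51) were higher than in liver, and their differences of 0.67 and -0.04 from subcutaneous tumours did not pass (edgeR adjusted p = 0.0576 and 0.855). Irf1, an activator of class I promoters, was higher than in liver (1.04) but had -0.30 (adjusted p = 0.423) against subcutaneous tumours, where its level was 14.3 to 21.98 CPM against 17.5 and 12.2 in brain. Of the 7 genes for the complex on class I promoters, only the NF-Y subunit gene Nfyc passed, at 1.70 and 1.32, and Rfx5, Rfxank, Rfxap, Creb1, Nfya and Nfyb did not. The Polycomb genes Ezh2, Eed and Suz12 had differences of -0.27 to 0.23 that did not pass (adjusted p = 0.172 to 0.732).

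Of the 35 interferon-stimulated genes, 34 were tested. Of these, 30 were higher in brain than in liver, beside 13.2% of all genes, and 25 than in subcutaneous tumours, beside 8.94%. The medians were 4.85 and 3.57, beside 0.0012 and -0.0004 over all genes tested. Ifitm3 was not called in either comparison, at -0.59 (edgeR adjusted p = 0.225) and 0.73 (adjusted p = 0.152). Which of the 34 pass the filter on low counts without brain was not determined, and passing only through brain fixes the direction. Ranked by the smaller of both differences, the leaders over all lists were Gbp3 (6.09), Bst2 (5.92), Ifi44 (5.87), Oas1a (5.62), Usp18 (5.42), Ifit1 (5.35), Gbp7 (5.04) and Samd9l (5.03). They were followed by H2-Q6 (4.84), Oasl2 (4.76), H2-Q7 (4.65), Rtp4 (4.49), H2-Q4 (4.19), Mx1 (4.16), Igtp (4.16), Irf7 (3.84), Irgm1 (3.81), Lgals3bp (3.71), Zbp1 (3.67) and H2-M3 (2.64). Bst2 was at 66.5 and 113 CPM in brain and at most 3.88 elsewhere, and unlike the members other than Psmb10 was higher in brain 2 than in brain 1.

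The genes whose level over the 8 libraries most resembled the mean of the members, on the log2(CPM + 1) scale, among 7937 with a mean of at least 10 CPM, were C1qtnf4 (Pearson r 0.993), Apoe (0.990), Wdr83os (0.986), Clca3b (0.986), Rapgef4 (0.984), Ctss (0.982), Ano8 (0.982) and Cited4 (0.981). The 8 libraries fall into brain and the rest, and any gene that follows this split scores high. Ctss, a cathepsin of myeloid cells, was among the markers used for host RNA. Clca3b was at 50.1 and 42.4 CPM in brain tumour cells, against a mean of 1.97 in liver, 4.03 in subcutaneous 1 and a mean of 1.90 in subcutaneous 2 and 3.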

How the data were processed

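Single-cell RNA libraries of 8 allografts were deposited by the authors as 10x matrices of raw counts of UMIs per gene and cell. The submitters' processing notes name Cell Ranger, STAR and the mm10 build, and the file headers give matrix format software version 3.0.0. Kept cells had 500 or more genes and no more than 10% of UMIs from mitochondrial genes, and no doublet caller was run. UMIs were summed per library over tumour cells (21689091 to 62047017 UMIs) and tested with edgeR 4.0.16 (TMM, filterByExpr, robust quasi-likelihood test, Benjamini-Hochberg adjustment over all genes tested, threshold 0.05) in R 4.3.3, with 1 fit over the 3 sites. Host against tumour cells and interferon-high against other cells used library as a block and libraries with at least 20 cells of each kind. SE is the log2 difference divided by the root of F. Host cells were clustered with scanpy 1.11.5 (Leiden) without the members, and classes were named from marker lists. Promoters and motifs were read from RefSeq for GRCm38.p6.

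The members and all gene lists were chosen with earlier results of these data known. Some results of the signalling and marker lists are not reported here. From the lists the text names the 20 genes, of 39 higher in brain in both comparisons, with the largest smaller difference, the members, the genes the other lists turn on, and the 8 genes most like the members' mean. Alternatives were DESeq2 1.42.0, other size factors, no filter, other thresholds, thinned cells, a replicate block and leaving out each library. Subtraction of host RNA and the interferon list without Ifitm3 were added after the data were seen. The site test was tested on simulated data for brain against liver with 13629 genes, and it recovered 75 of 100 genes changed 2-fold and 100 of 100 changed 4-fold, with 10 false among 185 calls. Host against tumour, with 12359 genes, gave 100 of 100 at either size and 11 false among 211. The changed genes were drawn only from well-counted ones, and all genes were given the same spread. These rates therefore do not carry over to rare members such as Tap1, Tap2 and Psmb9.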

Additional observations from a re-analysis of the deposited data

How the results depend on the processing

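With brain 1 and 2 only, the members' calls rest on few libraries. Leaving out 1 library at a time gave 5 to 8 members higher in brain than in liver and 1 to 8 against subcutaneous tumours, 0 between liver and subcutaneous tumours in every such fit, 7 to 9 in host cells and 2 to 4 in interferon-high cells. Without 1 brain library the other is assumed to vary like the remaining groups. The site counts include Tap1, Tap2 and Psmb9, which passed the filter only through brain. The number of all genes called also changed widely between these fits, and shares for some of them are given above. Over all genes, 3324 to 4827 were called for host cells and 181 to 222 for interferon-high cells. A fit of brain and subcutaneous tumours alone called 2 members, beside 3.45% of all genes called higher. For interferon-high cells DESeq2 and no filter on low counts each called 7 members, a threshold of 5 UMIs 5, and cells without a myeloid UMI 1. Shares of all genes are not given for these alternatives. The list without Ifitm3 called 8, beside 4.02% of all genes. Of these last 8, Tap1 and Psmb9 were tested only through their level in interferon-high cells. No member called higher in brain turned direction. Reversed values were all of differences that did not pass: for Psmb10 against liver 0.0307 in cells without a myeloid UMI and 0.0405 in thinned cells, and the rest between liver and subcutaneous tumours. There Tapbp was -0.00348 at a tumour threshold of 0.1%, -0.00282 in cells with under 3 interferon UMIs and -0.0279 thinned, B2m 0.0202 at 0.5% and 0.0295 thinned, and H2-D1 0.0172 thinned. With 1 library left out, these differences ranged from -0.163 to 0.0818 for H2-D1, -0.185 to 0.25 for B2m, -0.074 to 0.18 for Tapbp, -2.36 to 0.94 for Tap1, -0.94 to 0.36 for Tap2, -1.47 to 3.05 for Psmb8 and -0.99 to 1.40 for Psmb9, and the highest values of B2m, Tap1, Tap2, Tapbp, Psmb8 and Psmb9 were those without subcutaneous 1. The cause was not tested.

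The labels give each site the same replicate numbers. Same-numbered libraries had correlations of -0.251 to 0.262 in their deviations from the site means, and differently numbered ones -0.269 to 0.298. They thus gave no sign of pairing, but so few libraries per site cannot exclude it. With the replicate number as a block, 7, 7 and 0 members were called, Psmb8 being lost (adjusted p = 0.0942 and 0.0948), and B2m between liver and subcutaneous tumours was 0.0118. The share of all genes called in this fit is not given.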
